A study of Mus musculus with 60 samples.

Results

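The pregnane X receptor (PXR, gene Nr1i2) and the constitutive androstane receptor (CAR, gene Nr1i3) were followed with their common partner Rxra, the aryl hydrocarbon receptor gene Ahr and 6 enzymes of drug metabolism in mouse intrahepatic cholangiocyte organoids. The 10 genes were chosen by symbol, as 4 receptor genes (Nr1i2, Nr1i3, Rxra and Ahr) and 6 enzyme genes (Cyp2b10, Cyp3a11, Cyp3a13, Cyp3a25, Por and Ugt1a1), out of 31354 genes with a row in at least 1 of 3 count tables. The choice was made with earlier results of these data known. Rows were found for 9 of the 10 genes, and Nr1i3 was not analysed here. PXR and CAR are nuclear receptors that are activated by drugs, bile acids and other foreign or endogenous small molecules. They bind DNA as dimers with RXRA and raise the transcription of cytochrome P450, conjugation and transporter genes, which has been studied most in hepatocytes and enterocytes. AHR answers to planar aromatic compounds through another partner, ARNT, and shares some target genes with PXR and CAR.

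All organoids came from livers of male C57BL/6N mice aged 3-4 months. No genotype was compared. The culture experiment held 3 dome and 3 suspension cultures from 3 pools of 2, 4 and 3 mice, where a dome is a drop of Matrigel and a suspension culture is shaken in 10% Matrigel. In the passage experiment, bulk cultures of Sets 1, 3 and 4 were sampled at passage 4 and again at passage 11, each with 2 technical replicates that were summed. The single organoid experiment used 8, 10, 5 and 12 organoids of Sets 1, 2, 3 and 4, all picked from suspension culture, with Set 1 at passage 11, Sets 2 and 3 at passage 3 and Set 4 at passage 4. Each set came from 1 mouse, so mouse and passage cannot be told apart between sets, and organoids of a set are not separate animals. Whether the bulk passage cultures were grown in domes or suspension was not stated in the methods or labels.

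Libraries held 1776490 to 14761853 counts in the culture experiment, 1486347 to 5532630 after summing in the passage experiment and 1059002 to 11175868 among the 35 organoids used. Levels are given in CPM, counts scaled to a common library size after TMM normalisation, and log2 fold-changes are given ± SE from the fit. The summed CPM of 10 cholangiocyte markers ranged from 5416 to 31464 over all groups, and all 10 were detected in every library. The summed CPM of 6 mesenchymal markers was at most 0.691 and that of 5 endothelial markers at most 3.03. Dome replicate 1 and Set 1 organoid 1 were the deepest libraries of their experiments. Results of the members and counts of some lists are also given without them, but fold-changes of single genes of the lists are not. In all 3 experiments, fewer cells of a type and less RNA per cell cannot be told apart.

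Upstream sequences are shown for 4 of the 10 genes. These are Nr1i2, which encodes PXR, and 3 cytochrome P450 genes known as its targets or relatives of its targets. Of the 4, Cyp3a11 did not pass the filter on low counts in any experiment. The stretches come from RefSeq promoter entries (GRCm38.p6), which 9 of the 10 genes matched, and each ends at the base before the first annotated base of the gene. They are written 5′ to 3′ on the strand of the gene, and capitals mark the motifs AGGTCA and AGTTCA, which nuclear receptors bind in pairs, and TATAAA, searched on both strands.
Nr1i2 (PXR), chr16:38294825-38295074, minus strand, 250 bases: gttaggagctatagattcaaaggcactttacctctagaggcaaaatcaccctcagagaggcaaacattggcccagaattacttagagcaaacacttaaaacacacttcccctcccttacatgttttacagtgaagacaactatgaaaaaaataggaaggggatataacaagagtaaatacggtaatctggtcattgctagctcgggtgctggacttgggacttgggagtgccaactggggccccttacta
Cyp2b10, chr7:25897408-25897619, plus strand, 212 bases: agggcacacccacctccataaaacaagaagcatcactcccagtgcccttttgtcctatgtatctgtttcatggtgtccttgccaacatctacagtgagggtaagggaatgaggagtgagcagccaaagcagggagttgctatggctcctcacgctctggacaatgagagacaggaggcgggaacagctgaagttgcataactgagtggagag
Cyp3a11, chr5:145879965-145880104, minus strand, 140 bases: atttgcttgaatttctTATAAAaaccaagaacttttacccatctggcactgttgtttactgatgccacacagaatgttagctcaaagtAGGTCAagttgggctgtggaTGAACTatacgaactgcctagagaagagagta
Cyp3a13, chr5:137921620-137921869, minus strand, 250 bases: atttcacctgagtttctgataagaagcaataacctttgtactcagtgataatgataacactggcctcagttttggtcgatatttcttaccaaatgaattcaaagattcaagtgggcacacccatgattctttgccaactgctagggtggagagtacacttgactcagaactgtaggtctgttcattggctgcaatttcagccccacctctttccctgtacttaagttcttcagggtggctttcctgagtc
Only the Cyp3a11 stretch held the motifs. It had 1 TATAAA, 1 AGGTCA that ends 47 bases before the first annotated base of the gene and 1 AGTTCA on the other strand. In the first 140 bases of 32851 RefSeq promoters, 7.99% held AGGTCA, 7.43% AGTTCA and 6.89% TATAAA on either strand. In 250 bases the shares were 14%, 11.8% and 12.4%, and in 212 bases 12.1%, 10.4% and 9.64%. A match describes these letters only, and distal enhancers were not searched.

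On GRCm38, Nr1i2 lies at chr16:38248323-38294824, Rxra at chr2:27676440-27762957 and Ahr at chr12:35497974-35535038. Of the enzyme genes, Cyp3a13 lies at chr5:137892932-137921619, apart from Cyp3a11 at chr5:145854426-145879964 and Cyp3a25 at chr5:145977194-146009618. Cyp2b10 lies at chr7:25897620-25926624, Por at chr5:135670033-135735326 and Ugt1a1 at chr1:88211959-88218997. Nr1i3 lies at chr1:171213970-171220701, where 74.9% of its exonic bases overlap Tomm40l on the other strand. Because the libraries read 3′ ends, the last 500 bases of the longest coding transcripts were compared. Cyp2b10 had 428 identical bases with Cyp2b9 and 426 with Cyp2b13, Cyp3a11 had 301 with Cyp3a41a, and Cyp3a25 had 476 with Cyp3a59, so reads of these genes could have been shared with their paralogs. Cyp3a13 aligned to none of its 8 listed relatives over more than 18 bases. Ugt1a1 shared 58.9% of its exonic bases with 8 other genes of its locus, so its counts are uncertain.

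The culture comparison asks how gene expression depends on growth in domes or in suspension. Of the 6 members that passed the filter on low counts, 5 were higher in domes, namely Nr1i2, Rxra, Cyp2b10, Cyp3a13 and Por, and none was lower (edgeR quasi-likelihood test, Benjamini-Hochberg adj. P-value below 0.05). Over all 12699 genes tested, 29.8% were called. The same 5 members had no overlap between the groups of 3, as had 47.4% of all genes tested. The median log2 fold-change of the 6 members was 2.08, against −0.04 over all genes tested. Because the members were chosen with earlier results of these data known, these counts and medians are a description only.

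**Figure D1:**
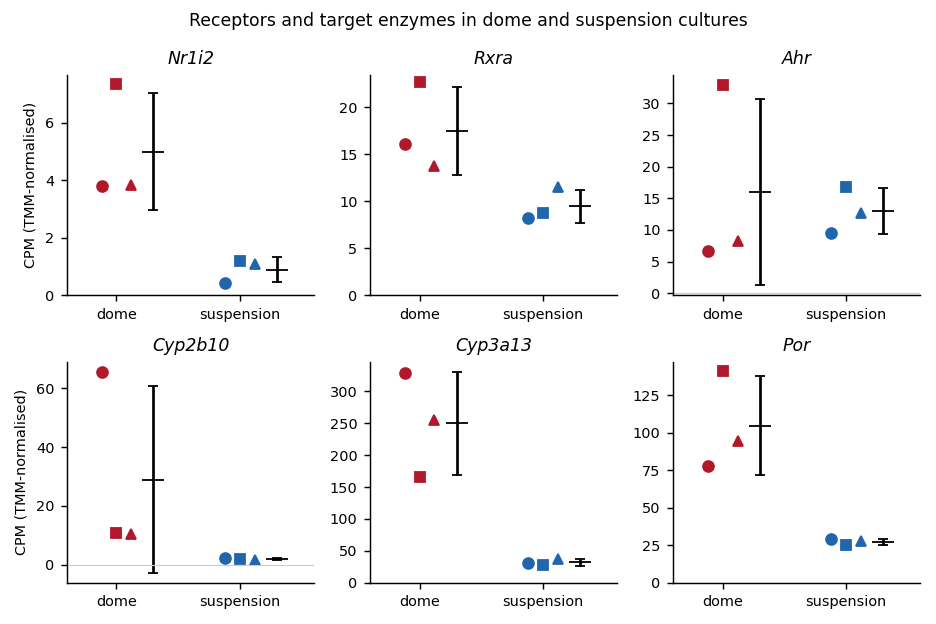
CPM of 6 members in 3 dome (red) and 3 suspension (blue) cultures, with replicates 1 (circle), 2 (square) and 3 (triangle) and the mean ± SD in black. The dome values lie above all suspension values for every gene shown except Ahr, and Cyp2b10 is highest in dome replicate 1.

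Nr1i2, the PXR gene, had 3.81, 7.33 and 3.85 CPM in dome replicates 1 to 3 and 0.421, 1.18 and 1.10 CPM in suspension replicates 1 to 3. Every dome value lay above every suspension value, although these levels rest on 67 and 23 counts. The gene was 4.76-fold higher in domes (log2 fold-change 2.25 ± 0.47, adj. P-value 0.00750, edgeR). Rxra, the partner of both receptors, had 16.1, 22.7 and 13.7 CPM in domes and 8.21, 8.75 and 11.5 CPM in suspension, without overlap. Its log2 fold-change was 0.83 ± 0.27 (adj. P-value 0.0396, edgeR), and this call was lost at equal depth (0.62, adj. P-value 0.253) and without any 1 of the libraries except dome replicate 3 (0.65 to 1.01, adj. P-values 0.0618 to 0.134).

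Ahr had 6.70, 33.0 and 8.25 CPM in domes and 9.47, 16.8 and 12.6 CPM in suspension. The groups overlapped, with both the lowest and the highest value in domes. The log2 fold-change was 0.11 ± 0.54 (adj. P-value 0.893, edgeR), and it was −0.84 without dome replicate 2 (adj. P-value 0.0657).

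Cyp2b10, the standard CAR target among mouse P450 genes, had 65.5, 11.0 and 10.4 CPM in dome replicates 1 to 3 and 2.31, 1.89 and 1.58 CPM in suspension. All domes were above all suspension cultures, and dome replicate 1 was far above the other domes. The log2 fold-change was 4.10 ± 0.70 (adj. P-value 0.00361, edgeR), or 17.2-fold, and 2.52 without dome replicate 1 (adj. P-value 0.00206). Cyp3a13, a P450 of the CYP3A family that is also made in intestine, had 328, 166 and 256 CPM in domes and 30.9, 27.2 and 37.9 CPM in suspension. It was 7.80-fold higher in domes, with a log2 fold-change of 2.96 ± 0.28 (adj. P-value 0.000597, edgeR) that ranged from 2.71 to 3.18 when 1 library was left out.

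Por encodes the reductase that passes electrons to all microsomal P450 enzymes. It had 77.9, 142 and 94.6 CPM in domes and 29.2, 25.3 and 27.7 CPM in suspension, without overlap. The difference was 3.77-fold (log2 fold-change 1.92 ± 0.24, adj. P-value 0.00125, edgeR).

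The remaining 3 enzyme genes did not pass the filter, and their counts were concentrated in dome replicate 1. Cyp3a11, the main CYP3A gene of mouse liver and a standard PXR target, had 416 counts (31.7 CPM) in dome replicate 1 and 0 counts in dome replicates 2 and 3, where 3 counts would equal 2.20 and 1.65 CPM. The suspension cultures had 1, 4 and 3 counts of Cyp3a11. Cyp3a25 had 27 counts in dome replicate 1 and 0 in the other 5 libraries. Ugt1a1, which conjugates bilirubin, had 4 counts in dome replicate 1 and 0 in the other 5 libraries. The level in dome replicate 1 was 2.06 CPM for Cyp3a25 and 0.305 CPM for Ugt1a1, near or below what 3 counts equal in the other domes, so a difference among domes was not detectable for these genes.

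The lists around the members are set against 29.8% of all genes tested that were called in either direction. Of other phase I targets, 6 of 7 tested genes were higher in domes, led by Cyp2c55 (log2 fold-change 6.00 ± 1.07), Cyp2c29 (5.98 ± 0.78) and Ces2a (3.77 ± 1.00). Cyp2c55 and Cyp2c29 are P450 genes that CAR and PXR ligands raise in mouse liver, and Ces2a is a carboxylesterase. Cyp2c29 had 18.3 to 140 CPM in domes and 0.895 to 1.26 CPM in suspension. Of the conjugation enzymes, 12 of 14 were higher and none lower, led by the glutathione transferases Gsta1 (3.66 ± 0.29) and Gsta2 (2.88 ± 0.39) and the glucuronosyltransferase Ugt2b36 (2.34 ± 0.73). Of the transporters, 2 of 4 were higher, Abcb1a (3.47 ± 0.62), which encodes the efflux pump P-glycoprotein, and Abcc3 (2.03 ± 0.27), which exports conjugates. Without dome replicate 1, 5 of 7 phase I targets, 9 of 14 conjugation enzymes and 3 of 5 transporters were called. In dome replicate 1, Cyp2c55, Ces2a and Ugt2b36 had 219, 832 and 77.8 CPM, against dome medians of 21.3, 56.5 and 11.0 CPM. Ugt2b36 overlapped between the groups, at 7.33 to 77.8 CPM in domes and 4.97 to 11.4 CPM in suspension.

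The other lists moved less evenly. Of 12 tested RXR forms and receptor cofactors, 2 were higher in domes, Rxrb (1.07 ± 0.21) and the CAR-binding chaperone Dnajc7 (0.83 ± 0.19), and 3 were lower, among them the chaperone Hsp90aa1 (−2.06 ± 0.25) and the corepressor Ncor1 (−1.56 ± 0.29). Among 7 other partners of RXR, the vitamin D receptor Vdr (1.61 ± 0.50) and the bile acid receptor Nr1h4 (1.19 ± 0.33) were higher. Among 11 genes listed under electron and haem supply, 3 were higher, Hmox1 (3.58 ± 0.45), Alad (1.18 ± 0.26) and Cyb5r3 (0.68 ± 0.20). Of these, Hmox1 encodes an enzyme that breaks down haem. Of 6 tested AHR partners and targets, only the cochaperone Ptges3 passed, lower in domes (−0.95 ± 0.19). In the Ugt1a locus 1 of 8 genes was tested, Ugt1a7c, and it was higher (2.22 ± 0.61), while none of the 10 Cyp2b and Cyp3a paralogs passed the filter. Without dome replicate 1, 3 of the AHR partners and targets and no Ugt1a gene were called.

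Marker genes moved with the same contrast. All 8 proliferation markers were lower in domes, where their summed CPM was 135 to 281 against 612 to 783 in suspension. Of 6 enterocyte markers, all 4 that were tested were higher, with sums of 118 to 396 against 59.3 to 73.4 CPM. Vil1 alone had 100 to 158 against 54.3 to 70.3 CPM. Fabp2, Apoa4 and Alpi had 132, 80.4 and 26.9 CPM in dome replicate 1, against dome medians of 11.7, 5.50 and 2.20 CPM. Of 10 hepatocyte markers, 6 were tested, 2 were higher (Apoa1 and Ass1) and 1 lower (Fah), with sums of 612 to 948 against 305 to 677 CPM, and Alb stayed at 0.914 to 3.85 CPM in domes and 0.210 to 4.96 CPM in suspension. Ttr alone had 262 to 768 CPM in domes and 216 to 583 CPM in suspension. Apoa1 had 159 CPM in dome replicate 1, against a dome median of 12.1 CPM. Macrophage markers summed to 6.93 to 93.1 CPM in domes and 3.37 to 9.22 CPM in suspension. Cd68 alone had 6.02 to 90.2 CPM in domes, most of the sums there, and 2.74 to 8.04 CPM in suspension. Csf1r had 0.533 to 1.65 CPM in domes and 0.421 to 3.24 CPM in suspension, and Ptprc at most 1.47 CPM in domes. The part of these cell states in the differences of the members was not tested.

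The passage comparison asks what continued passaging changes in cultures of the same mice. The bulk libraries are named by their labels, and proliferation markers do not run the same way in them as in the single organoids. In bulk, 7 of 8 were higher in the libraries labelled passage 11, whereas in single organoids none was higher and 3, 0 and 5 were lower in Set 1, at passage 11, than in Sets 2, 3 and 4. Other genes went both ways. Ces2a and the sulfotransferase Sult1a1 were higher in the libraries labelled passage 11, and also in Set 1 than in each other set. Abcc3 was lower in the libraries labelled passage 11 and higher in Set 1. The text of the study links proliferation terms to genes lower at passage 11, while its figure legend gives the same panel as terms higher there. No measured gene checks the bulk labels, so each direction given for this comparison rests on them and would turn if they were exchanged. Of 6 members tested, Ahr was lower and Cyp2b10 higher in the libraries labelled passage 11, against 20.3% of 13738 genes called. The groups of 3 did not overlap for 3 members, Ahr, Cyp2b10 and Nr1i2, and for 39.5% of all genes tested. The median log2 fold-change was 0.01 for the 6 members and −0.05 for all genes.

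**Figure D2:**
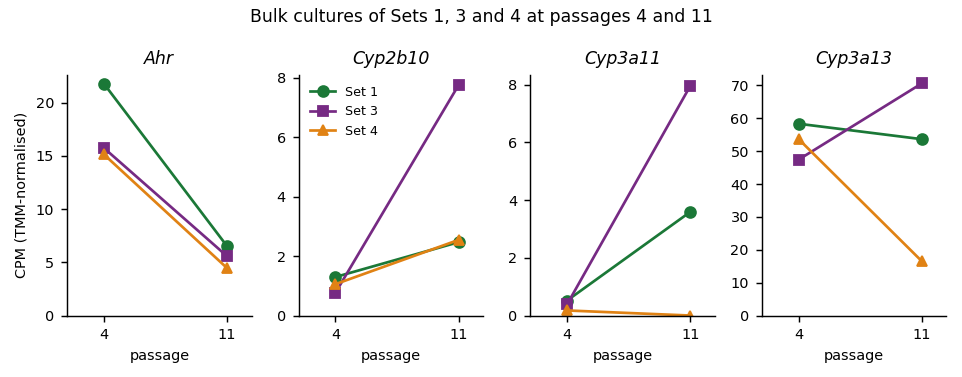
CPM of 4 members in bulk cultures of Sets 1, 3 and 4, each line joining the libraries labelled passage 4 and passage 11 of 1 set. Ahr is lower in all 3 sets at passage 11, at 4.45 to 6.51 CPM, while Cyp2b10 and Cyp3a11 were highest in Set 3 at passage 11 and Cyp3a13 was lowest in Set 4 at passage 11.

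Ahr had 21.8, 15.7 and 15.1 CPM at passage 4 and 6.51, 5.57 and 4.45 CPM at passage 11 in Sets 1, 3 and 4. It was lower at passage 11 in 3 of 3 sets and 3.04-fold lower on average (log2 fold-change −1.61 ± 0.25, adj. P-value 0.00271, edgeR). Leaving out 1 library gave −1.43 to −1.73 (adj. P-values 0.00617 to 0.0150). Among 6 tested AHR partners and targets, Ptges3 was higher (0.48 ± 0.13), and the AHR target genes Cyp1b1 (0.59 ± 0.38), Tiparp (−1.38 ± 0.47) and Nqo1 (−1.19 ± 0.47) were not called.

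Cyp2b10 had 1.30, 0.768 and 1.06 CPM at passage 4 and 2.47, 7.75 and 2.54 CPM at passage 11, from 15 and 54 counts. It was higher at passage 11 in 3 of 3 sets, by far the most in Set 3. The log2 fold-change was 2.14 ± 0.55 (adj. P-value 0.0215, edgeR). The call was lost at equal depth (1.58, adj. P-value 0.193), without Set 3 at passage 11 (1.26, adj. P-value 0.140), Set 3 at passage 4 (1.96, adj. P-value 0.0780) or Set 4 at passage 4 (2.16, adj. P-value 0.0615), and without both libraries of Set 3 (1.08, adj. P-value 0.316).

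Cyp3a11 did not pass the filter. Its counts were 2, 2 and 1 at passage 4 and 16, 40 and 0 at passage 11 in Sets 1, 3 and 4, so that Set 3 at passage 11 held the most (7.95 CPM) and Set 4 at passage 11 none, where 3 counts would equal 1.91 CPM. Both technical replicates of Set 3 at passage 11 had 20 counts. Cyp3a25 had 1 count in Set 3 at passage 11, and Ugt1a1 had 1 count in Set 3 at passage 4.

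Nr1i2 had 0.778, 0.960 and 0.352 CPM at passage 4 and 1.35, 1.19 and 1.27 CPM at passage 11. The groups did not overlap but rested on 10 and 14 counts, and the log2 fold-change of 0.87 ± 0.55 was not called (adj. P-value 0.295, edgeR). Cyp3a13 had 58.3, 47.4 and 53.7 CPM at passage 4 and 53.6, 70.6 and 16.5 CPM at passage 11 (log2 fold-change −0.11 ± 0.34, adj. P-value 0.861, edgeR). At passage 11 the sets thus spread from below to above the passage 4 range. Rxra (0.06, adj. P-value 0.904) and Por (−0.04, adj. P-value 0.861) were not called either, with Rxra at 8.45 to 9.59 and 6.36 to 12.9 CPM and Por at 47.5 to 56.4 and 45.6 to 55.1 CPM at passages 4 and 11 (edgeR).

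In the neighbouring lists, few genes were called, where 20.3% of all genes tested were called in either direction. Of 4 tested phase I targets, Ces2a was higher at passage 11 (log2 fold-change 4.00 ± 0.93), and it had 5.72 to 268 CPM there. No phase I target was called without both libraries of Set 3, a fit with 2 cultures a group that was added after seeing the data. Of 15 conjugation enzymes, Sult1a1 was higher (1.06 ± 0.30) and Gstt1 lower (−1.17 ± 0.27). Of 6 transporters, Abcc4 (−1.72 ± 0.20) and Abcc3 (−0.73 ± 0.16) were lower. Of 11 genes of electron and haem supply, 3 were higher, among them Cyb5r3 (0.74 ± 0.14) and Cyb5b (0.72 ± 0.13). No call was made among 12 cofactors (3 at an unadjusted P-value under 0.05), 7 other partners of RXR (2 unadjusted) or the 1 tested Ugt1a gene (0 unadjusted) in edgeR or DESeq2, and limma-voom called 2 cofactors. Without both libraries of Set 3 no gene of electron and haem supply and no AHR partner or target was called.

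The summed CPM of the 8 proliferation markers was 565 to 783 in the libraries labelled passage 11 and 269 to 305 in those labelled passage 4. Hepatocyte markers summed to 811 to 1166 against 336 to 752 CPM and enterocyte markers to 106 to 170 against 49.8 to 74.6 CPM. Most of these sums came from single genes. Ttr alone had 660 to 1093 against 267 to 685 CPM, and Vil1 alone 100 to 134 against 49.3 to 73.9 CPM. Among the other hepatocyte markers, mean CPM was lower in the libraries labelled passage 11 for Alb and Ass1 and higher for Apoa1, Fah and Hnf4a. Apoa1 had at most 85.7 CPM there, with a median of 5.39 CPM. The part of these marker lists in the results was not tested.

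The single organoid comparison asks how organoids of 4 mice differ from each other. Of the members, 4 passed the filter, and 2 of these, Cyp3a13 and Ahr, were called in at least 1 of 6 comparisons, against 38.6% of 13927 genes. Cyp3a13 was higher in Set 1 than in each other set, which held for 2.41% of genes. By comparison, Cyp3a13 and Ahr were called in Set 1 minus Set 2 (background 14.3%) and Set 1 minus Set 3 (9.43%), Cyp3a13 alone in Set 1 minus Set 4 (20.0%), and no member in Set 2 minus Set 3 (3.93%), Set 2 minus Set 4 (12.4%) or Set 3 minus Set 4 (11.6%). The comparisons with Set 1 share its organoids and are not independent of each other.

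**Figure D3:**
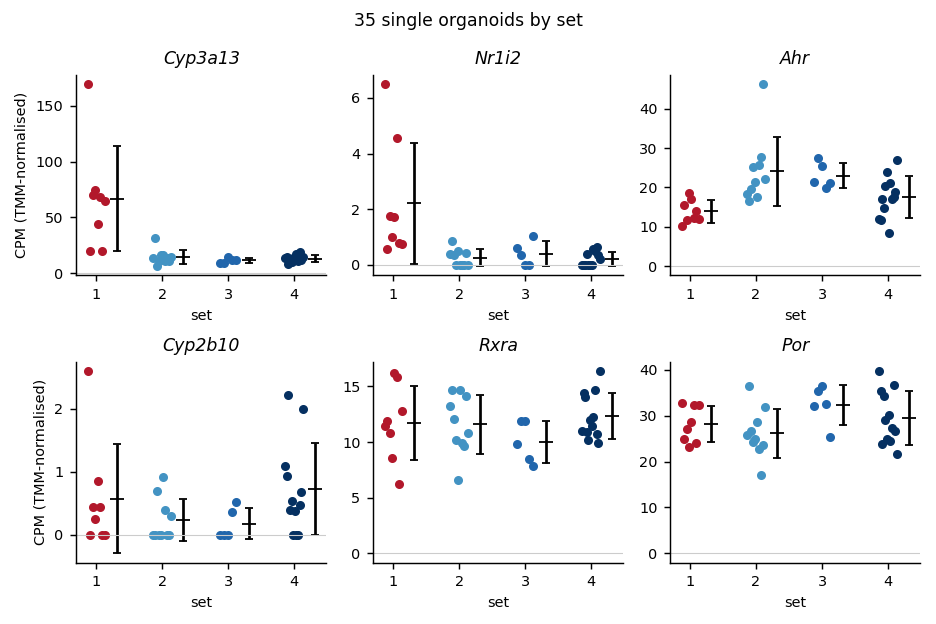
CPM of 6 members in 35 single organoids of Sets 1 (red), 2, 3 and 4 (blues), with the mean ± SD of each set in black. Cyp3a13 runs from 20.1 to 170 CPM in Set 1 and from 6.22 to 31.2 CPM in the other sets, whereas Rxra and Por overlap in all sets.

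Cyp3a13 had 20.1, 66.7 and 170 CPM as its lowest, median and highest value in Set 1, 6.22, 13.5 and 31.2 CPM in Set 2, 9.22, 11.6 and 14.1 CPM in Set 3 and 8.16, 13.02 and 18.6 CPM in Set 4. Of the 8 organoids of Set 1, 6 lay above every organoid of Sets 2 to 4, and only 1 of those 27 organoids lay above the lowest of Set 1. The log2 fold-change of Set 1 was 2.29 ± 0.27 against Set 2 (adj. P-value 8.21e-08), 2.60 ± 0.35 against Set 3 (adj. P-value 1.55e-06) and 2.35 ± 0.25 against Set 4 (adj. P-value 1.07e-08, edgeR). These differences are 4.90-fold, 6.04-fold and 5.11-fold. Without organoid 1 of Set 1 the log2 fold-changes were 1.92, 2.22 and 1.98, all called. Between Sets 2, 3 and 4 no difference was called (log2 fold-changes −0.24 to 0.30, adj. P-values 0.613 to 0.917, edgeR).

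The spread within Set 1 was wide. Organoid 1 had 170 CPM, organoids 3, 4, 6 and 8 had 70.4, 74.7, 68.7 and 64.8 CPM, organoid 5 had 43.9 CPM, and organoids 2 and 7 had 20.1 and 20.2 CPM. The biological coefficient of variation of Cyp3a13 over the 4 sets was 0.380, against 0.280 for genes of its abundance, while Por had 0.183 against 0.278 and Rxra 0.181 against 0.291. The summed CPM of 8 proliferation markers was lowest in organoid 1 (411) and highest in organoids 2 and 7 (1323 and 1259), a pairing of values that was chosen after they were seen. Over whole sets these sums ran from 411 to 1323 CPM in Set 1 and from 709 to 1817 CPM in Sets 2 to 4. Of the 8 markers, 3, 0 and 5 were lower in Set 1 than in Sets 2, 3 and 4. Hepatocyte markers summed to 564 to 2436 CPM in Set 1 and 469 to 2678 CPM in the others, and 6 enterocyte markers to 80.6 to 118 CPM in Set 1 and 38.7 to 93.2 CPM in the others. Only 1 or 2 of the 6 enterocyte markers were detected in each organoid of Set 1. In Set 3, Vil1 alone had 59.5 to 93.2 CPM and Ttr alone 415 to 665 CPM, most of the sums there. The part of these marker lists in the Cyp3a13 difference was not tested.

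**Figure D4:**
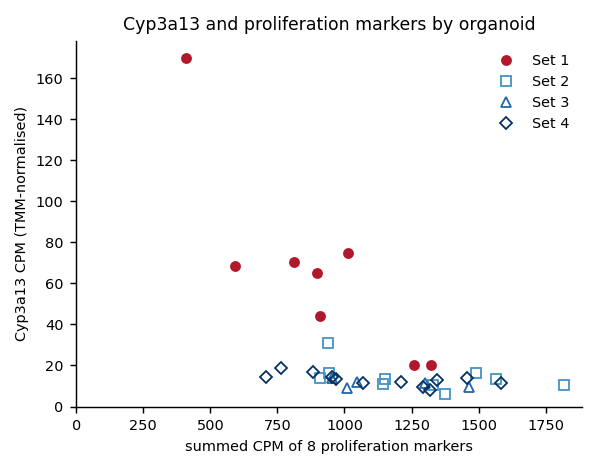
Cyp3a13 CPM against the summed CPM of 8 proliferation markers in 35 single organoids, with Set 1 filled. Within Set 1 the organoid with 170 CPM of Cyp3a13 has the lowest marker sum and the 2 organoids near 20.1 CPM the highest, and organoids of Sets 2 to 4 stay at or below 31.2 CPM at all sums.

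Ahr had 10.2, 13.1 and 18.7 CPM as its lowest, median and highest value in Set 1, 16.5, 21.8 and 46.4 CPM in Set 2, 19.8, 21.4 and 27.4 CPM in Set 3 and 8.38, 17.4 and 27.0 CPM in Set 4. Set 1 did not overlap Set 3 and overlapped the other sets. Ahr was lower in Set 1 than in Set 2 (log2 fold-change −0.82 ± 0.20, adj. P-value 0.00394) and Set 3 (−0.73 ± 0.23, adj. P-value 0.0303), and not called against Set 4 (−0.33 ± 0.19, adj. P-value 0.273, edgeR). The call against Set 3 was lost without organoid 3 or 4 of Set 3 or organoid 1 or 3 of Set 1 (−0.66 to −0.70, adj. P-values 0.0536 to 0.0845). The difference between Sets 2 and 4 was 0.49 (adj. P-value 0.0546, edgeR) and passed under limma-voom and DESeq2 (0.51 in each, adj. P-values 0.0472 and 0.0433).

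Rxra ranged from 6.21 to 16.4 CPM and Por from 17.0 to 39.7 CPM over the 35 organoids. Neither was called in any of the 6 comparisons, whose largest log2 fold-changes were −0.30 for Rxra (Set 3 minus Set 4 ± 0.19, adj. P-value 0.334) and −0.31 for Por (Set 2 minus Set 3 ± 0.16, adj. P-value 0.205, edgeR).

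Nr1i2 had few counts in organoids outside Set 1 and did not pass the filter. Organoids 1 to 8 of Set 1 had 65, 2, 8, 4, 4, 21, 1 and 1 counts, or 0.568 to 6.51 CPM. In the other sets it had 0 to 2 counts in Sets 2 and 3 and 0 to 4 in Set 4, and 13 of 27 organoids had none. With no filter on low counts, an alternative chosen after seeing the data, the log2 fold-change of Set 1 was 3.24 against Set 2 (adj. P-value 5.77e-05), 2.62 against Set 3 (adj. P-value 0.0106) and 3.19 against Set 4 (adj. P-value 9.19e-06, edgeR). Without organoid 1 these were 2.66 (adj. P-value 0.00192), 2.03 (adj. P-value 0.0755) and 2.62 (adj. P-value 0.000626).

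Cyp2b10 had 26 counts in organoid 1 of Set 1 and 0 to 10 in every other organoid. Its CPM was 0 to 2.61 in Set 1, 0 to 0.920 in Set 2, 0 to 0.527 in Set 3 and 0 to 2.23 in Set 4, and with no filter it was not called between Set 1 and any other set (adj. P-values 0.122, 0.205 and 1, edgeR). Cyp3a11 had 13 counts in 4 of 8 organoids of Set 1, 7 of them in organoid 1, 1 count in Set 3 and none in 10 organoids of Set 2 and 12 of Set 4. In those sets 3 counts would equal 0.471 to 2.76 CPM, above the mean of 0.260 CPM in Set 1. With no filter the adj. P-values were 0.00760 against Set 2, 0.319 against Set 3 and 0.00201 against Set 4, and 0.0517, 0.528 and 0.0208 without organoid 1 (edgeR). The calls against Sets 2 and 4 rest on groups at 0 counts, so no fold is given. Ugt1a1 had 1 count in 1 of 35 organoids, and Cyp3a25 was not analysed here in single organoids.

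Of the lists around the members, conjugation enzymes, phase I targets and transporters had more genes called higher than lower in Set 1. The AHR partners and targets did not. Over all genes tested, 14.3%, 9.43% and 20.0% were called in either direction against Sets 2, 3 and 4. Of 15 tested conjugation enzymes, 9, 7 and 8 were higher in Set 1 than in Sets 2, 3 and 4, and none was lower. Without organoid 1 of Set 1, 6, 6 and 7 were called. The glucuronosyltransferase Ugt2b34 led against Set 2 (2.22 ± 0.28), its relative Ugt2b36 against Set 3 (2.00 ± 0.46) and the sulfotransferase Sult1a1 against Set 4 (1.83 ± 0.25). The medians of the list were 1.00, 0.99 and 0.73, against 0.01, 0.03 and 0.02 over all genes tested. Of 5 tested phase I targets, 3, 2 and 4 were higher, with Cyp2c65 at 3.64 ± 0.56, 3.38 ± 0.71 and 3.58 ± 0.50 and Ces2a at 1.98, 3.36 and 2.83, while Alas1, which starts haem synthesis, was lower against Set 3 (−0.72 ± 0.23) and higher against Set 4 (0.81 ± 0.19).

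Of 5 transporters tested, 2, 3 and 4 were higher in Set 1. Abcb1a had the largest difference, 3.93 ± 0.57, 4.27 ± 0.77 and 4.10 ± 0.53 against Sets 2, 3 and 4, with 1.42 to 60.9 CPM in Set 1 and at most 2.23 CPM elsewhere. Abcc3 followed at 1.61, 0.85 and 1.08, and Abcg2, another efflux pump, was lower against Set 2 (−1.27 ± 0.37). Of 6 AHR partners and targets, none was called against Set 2 in edgeR, DESeq2 or limma-voom (3 at an unadjusted P-value under 0.05 in edgeR), Nqo1 was lower against Set 3 (−1.85 ± 0.53), and against Set 4 Nqo1 (−1.41 ± 0.46), Cyp1b1 (−1.36 ± 0.29) and Ptges3 (−0.60 ± 0.21) were lower and Tiparp higher (0.86 ± 0.26). Without organoid 1 of Set 1, 1, 1 and 2 genes of this list were called. The other partners of RXR had 2, 1 and 4 of 8 genes higher in Set 1, led by Ppara against Sets 3 and 4 (3.16 ± 0.87 and 2.06 ± 0.53). Ppara was near the floor, with an average log2 CPM of 0.307 in the fit. In Set 3 it had 1 count in all and 0 in 4 of 5 organoids, so the size of that difference is uncertain.

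Of 12 cofactors, Ncoa1 was higher against Sets 2 and 4 (0.70 ± 0.22 and 0.80 ± 0.21) and Ppargc1a lower against Set 2 (−1.20 ± 0.35). Of 11 genes listed under electron and haem supply, Pgrmc1 was higher against Set 2 (0.55 ± 0.14) and the haem-degrading Hmox1 lower against Sets 3 and 4 (−0.85 ± 0.28 and −1.23 ± 0.23). Neither of the 2 tested Ugt1a genes was called against any set in edgeR, DESeq2 or limma-voom (0, 0 and 2 at an unadjusted P-value under 0.05 in edgeR), and no Cyp2b or Cyp3a paralog passed the filter.

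**Figure D5:**
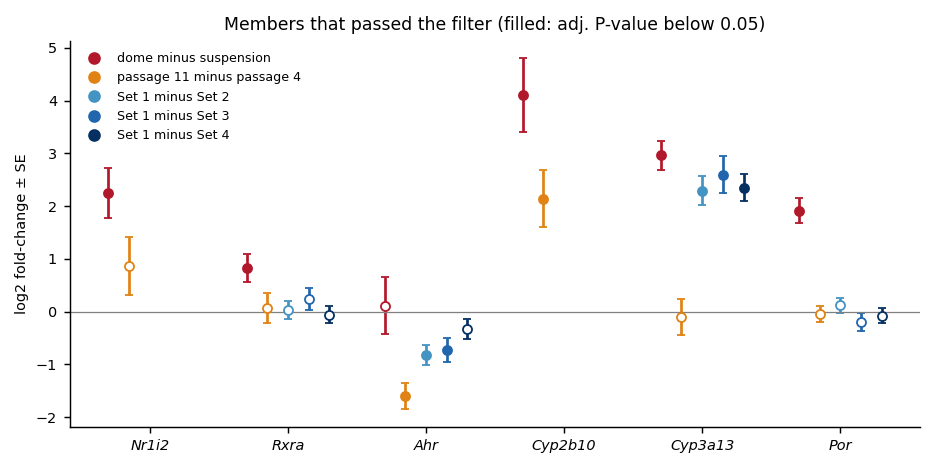
Log2 fold-change ± SE of the members that passed the filter in 5 comparisons, with filled points for an adj. P-value below 0.05. Cyp3a13 is at 2.96 for dome minus suspension and 2.29 to 2.60 for Set 1 minus the other sets, but at −0.11 for passage 11 minus passage 4, where Ahr is at −1.61.

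Set side by side, the members did not share one pattern over the 3 experiments, which were normalised separately. Cyp3a13 was higher in domes and in the single organoids of Set 1, and was not called between passages 4 and 11. Por was higher in domes and was called in no other comparison, and the same was true of Rxra. The Rxra call was lost at equal depth and without any 1 library except dome replicate 3. Nr1i2 was higher in domes and not called between passages. In single organoids it was higher in Set 1, but only in the fit with no filter. Cyp2b10 was higher in domes and in the libraries labelled passage 11, a call lost without Set 3. It was not called in single organoids with no filter. Ahr was lower in the bulk libraries labelled passage 11, a direction that rests on labels which no gene checks. The proliferation markers and Abcc3 did not run the same way in bulk and in single organoids, while Ces2a and Sult1a1 did. Ahr was also lower in the organoids of Set 1 than in those of Sets 2 and 3, where mouse and passage cannot be told apart, and was not called between domes and suspension. Set 1 is also 1 of the 3 sets of the bulk passage experiment, where its libraries labelled passage 4 and 11 had 21.8 and 6.51 CPM of Ahr and 58.3 and 53.6 CPM of Cyp3a13. Whether the comparisons differ from each other was not tested.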

How the data were processed

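Gene expression was measured by bulk RNA sequencing of 3′ ends with molecular barcodes, in cultures and in single organoids. Per the methods and the deposited tables, the authors mapped reads to mm10 with STAR within zUMIs, down-sampled, and assigned them to Ensembl genes with featureCounts. The values are whole-number counts per gene as deposited by the authors, and no source at hand says whether they are molecules or reads. The submitters' processing notes also name SAMtools 1.9, R 3.6.3, edgeR 3.28.1 and limma 3.42.2. Of 42 organoids, 7 that the study set aside were left out and 35 used. Technical replicates were summed.

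Each table was fitted separately on all its genes in R 4.3.3 with edgeR 4.0.16 (filterByExpr with a minimum count of 3, TMM, quasi-likelihood F-test), with limma 3.58.1 and DESeq2 1.42.0 as alternatives. P-values were adjusted by Benjamini-Hochberg with a threshold of 0.05, over all 6 set comparisons together for single organoids, and SEs were derived from the F statistic. P-values measure the spread between the samples, and those between sets measure the spread between organoids of 1 mouse each. Of 23440, 23068 and 28773 gene IDs, 23416, 23044 and 28731 had a symbol. Depth was 1776490 to 14761853, 1486347 to 5532630 and 1059002 to 11175868 counts, and detection limits of 3 counts cover counting error only. Scripts were tested on simulated data. Paralog ends were aligned with Biopython 1.88 and figures drawn with matplotlib 3.10.9.

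The members and lists were chosen with earlier results of these data known. All 10 members were named, and of each list the called genes with the largest log2 fold-change, at most 3 in each direction and comparison, with further genes named only beside a result. Some genes of the lists are not reported here by name. Similar genes and correlations between members were not computed, because the genes concerned had a median count under 5. Culture numbers stand for shared pools, and deviations of same-numbered dome and suspension cultures correlated at r 0.128, 0.126 and 0.145. Passage cultures pair by mouse (r 0.0990, 0.0250 and 0.0774), and organoid numbers do not pair. Alternatives were other size factors, filters, tools, equal depth, the replicate block, single technical replicates, all 42 organoids and leaving out libraries.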

Additional observations from a re-analysis of the deposited data

Results flagged for a closer look

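In 6 of 21 pairs of a member and a set of 5 to 10 organoids, the highest organoid stood apart from the others by Dixon's test. Chance gives this in about 1 of 20 groups, but that rate does not hold for counts near 0, as those of Cyp2b10, Cyp3a11 and Ugt1a1 were. Cyp3a13 was at 170 CPM in organoid 1 of Set 1 and at 31.2 CPM in organoid 2 of Set 2. Ahr was at 46.4 CPM in organoid 10 of Set 2. Cyp2b10 was at 2.61 CPM in organoid 1 of Set 1, the deepest library. Cyp3a11 at 0.353 CPM in organoid 5 of Set 3 and Ugt1a1 at 0.214 CPM in organoid 10 of Set 2 rest on 1 count each with 0 in all other organoids of the set, where the outcome of the test is fixed, so they say nothing of an unusual organoid. The 7 organoids left out of the comparisons also held counts of the members, at most 32 of Por, 14 of Rxra, 20 of Ahr and 23 of Cyp3a13. Scaled to the raw total, Cyp3a13 was at 22.7 and 18.7 CPM in the 2 left-out organoids of Set 1 and at 10.8 to 17.3 CPM in the other 5, where the used organoids had 21.4 to 152 CPM in Set 1 and 6.50 to 27.7 CPM in the other sets.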

How the results depend on the processing

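The number of members called was 5 for domes against suspension, 2 between passages and 2 among sets. With the replicate block it stayed at 5, 2 and 2, and the block changed the call of no count of members. The passage count was 1 at equal depth, 1 with technical replicate 1 only and 1 without both libraries of Set 3, an alternative chosen after seeing the data. Leaving out 1 library gave 4 to 6 for domes against suspension, 1 to 3 between passages (1 without Set 3 at passage 11 or 4, or Set 4 at passage 4) and 2 to 3 among sets. With no filter on low counts the count among sets was 4. The cause was not tested. Of the members' log2 fold-changes under all alternatives, 676 kept direction and side of the threshold, 17 lost a call, 5 gained one and 0 changed direction while called. Low counts limited what could be said of Cyp3a25 and Ugt1a1 in each table where they had values. The same held for Nr1i2, Cyp2b10 and Cyp3a11 in single organoids. Whether these counts were low through depth or through low expression was not tested.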
